A study of Mus musculus with 8 samples.

Results

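The aryl hydrocarbon receptor (AHR) pathway was followed through 7 genes: the receptor Ahr, its DNA-binding partner Arnt, the repressor Ahrr, and the target genes Cyp1a1, Cyp1a2, Cyp1b1 and Tiparp. The 7 genes were taken as a list out of 39056 genes in the deposited counts, and Cyp1a1 was put on it because of its fall in null hearts, so that its values are a description and carry no test. Hearts came from 4 male HVCN1 null mice (hearts 1 to 4) and 4 male WT mice (hearts 5 to 8), all 3 months old, and the study's mice were on a C57BL/6 background. The null mice carry a knockout of the voltage-gated proton channel HVCN1 (Hv1), of which the sources used here do not say how it was made, and 1 poly-A library per heart, with all its cell types in it, was compared between the genotypes.

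AHR is a ligand-activated transcription factor of the bHLH-PAS family that waits in the cytosol in a complex with HSP90 and other chaperones. When it binds a ligand, such as a dioxin, a plant indole or a tryptophan metabolite, it enters the nucleus, pairs with ARNT and binds response elements that hold the letters GCGTG. It induces xenobiotic-metabolizing cytochrome P450 enzymes, of which CYP1A1 is the best-known readout, together with brakes on its own activity, the AHR repressor AHRR and the ADP-ribosyltransferase TIPARP. In the heart and its vessels, endothelial cells are a known site of Cyp1a1 induction.

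The promoter windows of 3 members are shown because the pair of AHR and ARNT binds DNA at this core. Each is the 250 bases before a RefSeq transcription start on GRCm38.p6, read on the gene's strand, with GCGTG or its reverse complement CACGC in capitals. The windows are those of Cyp1a1 (chr9:57697363-57697612, plus strand), Ahrr (chr13:74292332-74292581, minus strand) and Cyp1b1 (chr17:79715062-79715311, minus strand).
Cyp1a1: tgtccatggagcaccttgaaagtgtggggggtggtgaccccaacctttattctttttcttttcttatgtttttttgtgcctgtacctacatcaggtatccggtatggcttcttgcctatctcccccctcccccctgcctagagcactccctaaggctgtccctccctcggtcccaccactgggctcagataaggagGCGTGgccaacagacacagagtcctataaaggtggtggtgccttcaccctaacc
Ahrr: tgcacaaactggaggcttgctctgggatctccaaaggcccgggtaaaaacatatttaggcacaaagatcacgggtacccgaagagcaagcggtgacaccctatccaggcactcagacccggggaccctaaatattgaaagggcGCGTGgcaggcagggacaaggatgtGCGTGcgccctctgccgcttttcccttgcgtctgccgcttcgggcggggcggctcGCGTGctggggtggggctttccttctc
Cyp1b1: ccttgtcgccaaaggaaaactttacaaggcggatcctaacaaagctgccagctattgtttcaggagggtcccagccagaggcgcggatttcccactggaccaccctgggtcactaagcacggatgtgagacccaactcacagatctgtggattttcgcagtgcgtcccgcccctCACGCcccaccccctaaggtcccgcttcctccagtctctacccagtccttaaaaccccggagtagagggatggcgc

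The Cyp1a1 window held 1 core, which began 54 bases before the start, and the Cyp1b1 window held 1 on the reverse strand, 76 bases before the start. Ahrr held 3, at 107, 82 and 27 bases before the start, and 1 of them was in the longer form TNGCGTG, which contains the shorter one. Of the other members with a window, Tiparp held 1 core on the reverse strand 170 bases before its start, Arnt held 1 at 29 bases, and Cyp1a2 held 0. The core was thus found in 5 of 6 members, against 28.2% of 32851 promoter windows of the same length, and 3 or more cores were found in 2.77% of all windows. The GC content was 53.6% for Cyp1a1, 60.4% for Ahrr, 58.0% for Cyp1b1, 75.2% for Tiparp and 57.2% for Arnt, against a median of 52.4% over all windows. It was 47.2% for Cyp1a2, the window without a core. The windows with a core were thus all above the median, and the part of GC content in the core count was not tested. A match is a run of letters and not a measured binding site, and the enhancer known to carry AHR at mouse Cyp1a1 lies further upstream than this window. The RefSeq start of Cyp1a1 lies inside the GENCODE gene span given below, which opens further upstream.

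Total counts per heart ran from 25851255 to 38874640, and 14796 genes passed the filter on low counts, 6 of the 7 members among them. Hvcn1 itself (ENSMUSG00000064267) had 49 to 102 counts in WT and 1 to 6 in null hearts, the order that the labels give. Levels are in CPM, a gene's counts relative to the library size of the heart, after TMM scaling in edgeR, and DEGs are genes with a Benjamini-Hochberg adjusted p under 0.05 in edgeR's quasi-likelihood test over all tested genes. By that rule 169 genes, 1.14% of those tested, were DEGs (110 higher and 59 lower in null hearts), 1625 (11.0%) had an unadjusted p under 0.05, and the median log2 fold change of all genes, null over WT, was -0.01. The 4 null values lay wholly above or wholly below the 4 WT values in 7.06% of tested genes. Since each library came from 1 heart, p-values set the genotype difference against the spread between these hearts. The atrial markers Nppa, Sln, Myl7, Myl4 and Bmp10 were uneven and divided each genotype evenly: they summed to 3179 to 8169 CPM in null hearts 2 and 3 and WT hearts 5 and 7, and to 84.8 to 312 CPM in the other 4 hearts, all of these ranges taken over both genotypes. The low side was unequal between genotypes: the sums were 308 and 312 CPM in null hearts 1 and 4 and 122 and 84.8 CPM in WT hearts 6 and 8, Myl7 was at 17.0 and 33.6 CPM against 0.618 and 0.169 CPM, and 3 of the 5 markers were called in a fit of these 4 hearts alone.

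Cyp1a1 and no other member was a DEG, and the rest of the tested members, 5 genes, had 0 calls and 0 unadjusted p under 0.05. As Cyp1a1 was selected on this contrast, nothing is read from its call beside the 1.14% of all genes. Of the 5, 4 were lower and 1 was higher in null hearts on average, with a median log2 fold change of -0.07. Their genotypes overlapped in all 5, where 7.06% of all tested genes did not overlap. None of the 5 was called in any of 19 other settings of the normalization, filter, test or hearts.

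**Figure D1:**
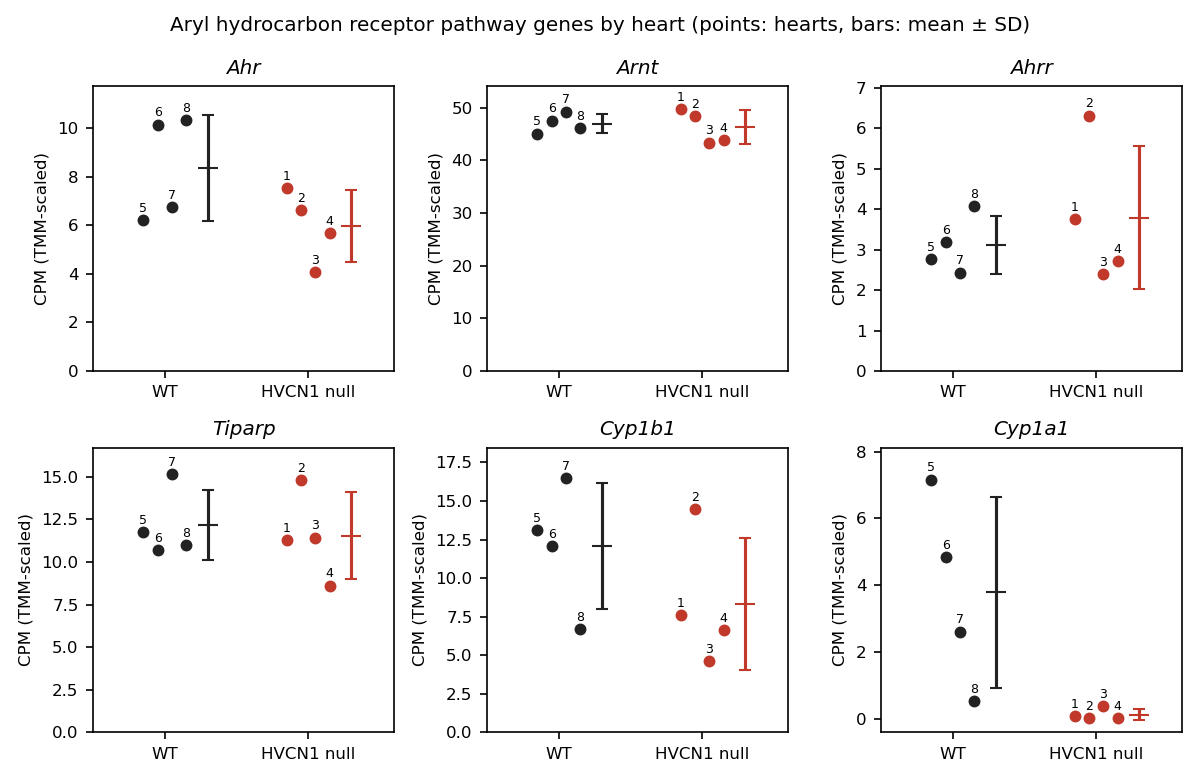
TMM-scaled CPM (vertical axes, linear) of the 6 tested members in WT hearts (black) and HVCN1 null hearts (red), with heart numbers above the points and the mean ± SD beside them. The groups overlap for Ahr, Arnt, Ahrr, Tiparp and Cyp1b1, while every WT heart lies above every null heart for Cyp1a1.

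The receptor Ahr (ENSMUSG00000019256, chromosome 12, 35497974 to 35535038 in GENCODE M21 on GRCm38) was at 7.54, 6.61, 4.07 and 5.68 CPM in null hearts 1 to 4 and at 6.20, 10.1, 6.74 and 10.3 CPM in WT hearts 5 to 8. WT hearts 6 and 8 stood above all others, while WT hearts 5 and 7 lay within the range of the null hearts. The means were 5.97 ± 1.48 and 8.35 ± 2.18 CPM (SD, n = 4 each), with a log2 fold change of -0.48 (SE 0.22, adjusted p = 0.479). The difference in mean CPM did not pass a two-sided exact permutation test either (p = 0.171, n = 4 and 4), for which 0.0286 is the smallest p. Both high WT hearts were low in atrial markers. Among hearts low in these markers, Ahr was at 5.68 to 7.54 CPM in null and 10.1 to 10.3 CPM in WT hearts, and among those high in them it was at 4.07 to 6.61 and 6.20 to 6.74 CPM. On the low side the atrial markers themselves were higher in null hearts. With the atrial markers as a covariate, added after seeing the data, the log2 fold change of Ahr was -0.34 (edgeR adjusted p = 0.528).

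Arnt (ENSMUSG00000015522, chromosome 3, 95434388 to 95497240), which pairs with AHR and also with the hypoxia-inducible factors, varied least between hearts of the 6 tested members. It was at 49.8, 48.4, 43.4 and 43.9 CPM in null hearts and at 45.1, 47.5, 49.2 and 46.2 CPM in WT hearts. All WT values fell within the null range. The log2 fold change was -0.02 (SE 0.08, adjusted p = 0.978), and its sign turned with the scaling or with the heart left out.

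Ahrr (ENSMUSG00000021575, chromosome 13, 74211118 to 74292331), which competes with AHR for ARNT and is itself induced by AHR, was at 3.75, 6.31, 2.39 and 2.71 CPM in null hearts and at 2.76, 3.18, 2.43 and 4.09 CPM in WT hearts. Null heart 2 alone stood above the WT range. The log2 fold change was 0.29 (SE 0.30, adjusted p = 0.848) with all hearts and -0.07 without null heart 2, so that no direction can be given.

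Tiparp (ENSMUSG00000034640, chromosome 3, 65528410 to 65555518), whose product modifies AHR and shortens its activity, was at 11.3, 14.8, 11.4 and 8.62 CPM in null hearts and at 11.7, 10.7, 15.2 and 11.0 CPM in WT hearts. The highest hearts, null 2 and WT 7, were in different genotypes, and the ranges overlapped. The log2 fold change was -0.07 (SE 0.17, adjusted p = 0.945).

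Cyp1b1 (ENSMUSG00000024087, chromosome 17, 79701537 to 79715061), the P450 of this family that metabolizes estrogens and is expressed in vessels and stroma without added ligand, was at 7.60, 14.5, 4.64 and 6.64 CPM in null hearts and at 13.1, 12.1, 16.5 and 6.68 CPM in WT hearts. Null hearts 1, 3 and 4 lay below WT hearts 5 to 7, but null heart 2 was among the high values and WT heart 8 among the low ones. The means were 8.34 ± 4.27 and 12.1 ± 4.06 CPM (SD, n = 4 each). The log2 fold change of -0.53 (SE 0.34) was not past the threshold (adjusted p = 0.681), and neither was the difference in CPM (exact permutation, two-sided p = 0.286).

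Cyp1a2 (ENSMUSG00000032310, chromosome 9, 57676937 to 57683703), an AHR target best known from liver, had 0 counts in all 8 hearts. At these depths 3 counts, the limit that a count of 0 allows, correspond to 0.0759 to 0.114 CPM per heart. Its GENCODE span lies 4224 bases from that of Cyp1a1, on the opposite strand, and the RefSeq start of Cyp1a1 lies further away.

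Cyp1a1 (ENSMUSG00000032315, chromosome 9, 57687928 to 57703824, plus strand), the enzyme that oxidizes polycyclic aromatic hydrocarbons and the gene chosen for its fall, had 3, 1, 10 and 1 counts in null hearts and 283, 157, 99 and 16 in the WT. These are 0.0901, 0.0268, 0.380 and 0.0283 CPM in null hearts and 7.16, 4.85, 2.62 and 0.540 CPM in WT hearts. Every WT heart was above every null heart, yet the WT hearts differed 13.3-fold among themselves and the null hearts 14.2-fold. The means were 0.131 ± 0.168 CPM in null and 3.79 ± 2.85 CPM in WT hearts (n = 4 each, ± SD), with a fitted log2 fold change of -4.98 (SE 0.89).

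The gap between the genotypes was set by 1 heart on each side. The lowest WT heart, heart 8, was 1.42-fold above the highest null heart, heart 3, and the next WT heart, heart 7, was 6.89-fold above it. The 95% exact Poisson intervals of hearts 8 and 3 were 0.309 to 0.877 CPM and 0.182 to 0.699 CPM, so they overlapped, whereas that of heart 7 was 2.13 to 3.19 CPM. WT heart 5 held 51.0% of all WT counts of this gene. Without heart 8 the WT mean was 4.88 ± 2.27 CPM (n = 3), and without heart 3 the null mean was 0.0484 ± 0.0361 CPM (n = 3). The intervals cover counting error only. The fitted log2 fold change lay between -6.23 and -4.45 over the 18 other settings in which the gene was kept.

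**Figure D2:**
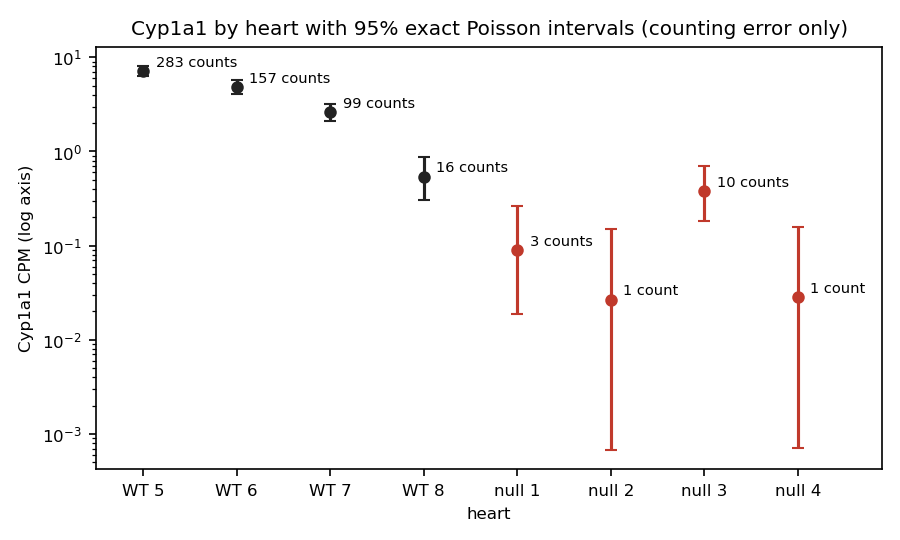
Cyp1a1 CPM per heart on a log axis, WT hearts in black and HVCN1 null hearts in red, with 95% exact Poisson intervals of the counts printed beside the points. The interval of WT heart 8 (16 counts) overlaps that of null heart 3 (10 counts), and the other WT hearts lie higher.

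Expressed per kb of merged exons, so that genes can be compared, Arnt was the highest member in both genotypes, with means of 5.87 CPM per kb in WT and 5.79 in null hearts. Tiparp followed at 2.79 and 2.65, then Cyp1b1 at 2.07 and 1.43 CPM per kb. Cyp1a1 and Ahr had the same WT mean of 1.36 CPM per kb, and Ahrr had the lowest WT mean of the 6 tested members at 0.330, though Cyp1a1 in WT heart 8, at 0.194, was below every WT value of Ahrr. In WT hearts the values of Arnt lay above those of all other members and those of Ahrr lay below those of Ahr, while neighbours from Tiparp to Ahr overlapped. In null hearts Cyp1a1 had the lowest mean of the 6, at a mean of 0.0471 CPM per kb, under Ahr at 0.969 and Ahrr at 0.402 CPM per kb, whose ranges met. All null values of Cyp1a1 were below all null values of Ahrr.

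**Figure D3:**
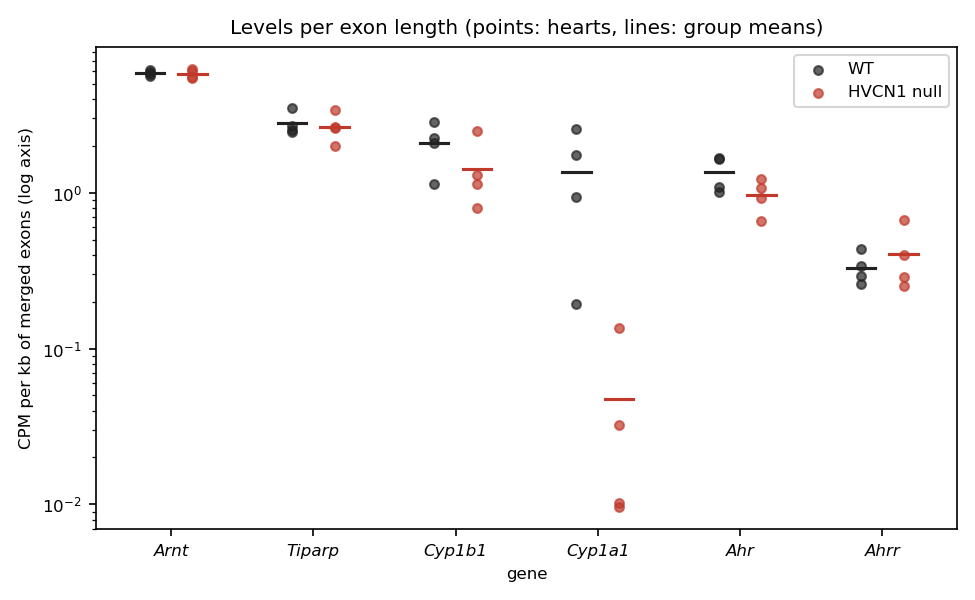
CPM per kb of merged exons on a log axis for the 6 tested members, ordered by WT mean, with points for hearts and lines for group means. Arnt is highest in both genotypes, and Cyp1a1 changes from the level of Ahr in WT hearts (1.36) to the lowest in null hearts (0.0471).

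Cardiomyocyte markers summed to 47267 to 61152 CPM per heart over both genotypes, as befits the labelled tissue, and in whole-heart RNA fewer cells of a type and less RNA per cell cannot be told apart. The 8 endothelial markers summed to 947 to 1201 CPM in null and 993 to 1204 CPM in WT hearts, and the 6 fibroblast markers to 687 to 1089 and 739 to 1121 CPM. In either list, and in the cardiomyocyte, atrial, mesothelial, adipocyte and hepatocyte lists, 0 were called, against 1.14% of all tested genes. The cardiomyocyte marker Actc1 was at 6078 to 6727 CPM in null and 7640 to 10536 CPM in WT hearts (log2 fold change -0.51, SE 0.12, adjusted p = 0.105). Its groups did not overlap, as for 7.06% of all tested genes. In other settings, 1 cardiomyocyte marker was called with library sizes not scaled and 1 with DESeq2. All 5 macrophage markers were lower in null hearts (median log2 fold change -0.31), with sums of 118 to 152 CPM in null and 132 to 195 CPM in WT hearts. Of these markers, 2 had an unadjusted p under 0.05, as did 11.0% of all tested genes. None was called in this or the 19 other settings. The 4 smooth muscle markers summed to 271 to 522 CPM in null and 165 to 240 CPM in WT hearts, and Acta2, smooth muscle actin, was the DEG among them (log2 fold change 1.32, adjusted p = 0.0466), at 150 to 357 CPM in null and 79.5 to 125 CPM in WT hearts. Leaving out any heart but null heart 2 or 4 ended the call of Acta2 (adjusted p from 0.0628 to 0.149), and so did no scaling (0.0577), a CPM above 1 in 4 hearts (0.0512) and voom (0.0518). All 4 erythroid markers had a log2 fold change below 0 (median -0.99), with 1 called without null heart 4 and 0 with all hearts. They summed to 1161 to 6927 CPM in null and 2457 to 12441 CPM in WT hearts. WT heart 5, which had the most Cyp1a1, had the highest sum, but the other hearts did not keep this order. Null heart 4, with 1 count of Cyp1a1, had the next highest sum, 6927 CPM. WT heart 8, the lowest WT heart for Cyp1a1, had 4096 CPM, above WT hearts 6 (2457 CPM) and 7 (3202 CPM). The part of the macrophage, smooth muscle and erythroid differences in the Cyp1a1 difference was not tested.

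Markers of lung and liver, organs in which Cyp1a1 is known to be induced, were also read. The 6 lung epithelial markers summed to at most 0.113 CPM in any heart, with Sftpb and Cldn18 at 0 counts in all. The 5 hepatocyte markers summed to 0.991 to 7.38 CPM in null and 0.309 to 10.8 CPM in WT hearts. Most of the sum was Cyp2e1 in all hearts but WT hearts 6 and 8, where Ttr was higher (0.185 and 0.405 CPM, against 0.124 and 0.236 CPM for Cyp2e1). Cyp2e1, a P450, was at 0.124 to 10.3 CPM per heart and was highest in hearts high in atrial markers, while Alb was at 0 in all hearts. The part of Cyp2e1-expressing cells in the Cyp1a1 levels was not tested. Among hearts high in atrial markers, Cyp1a1 was at 0.0268 to 0.380 CPM in null and 2.62 to 7.16 CPM in WT hearts. Among those low in them, Cyp1a1 was at 0.0283 to 0.0901 and 0.540 to 4.85 CPM (n = 2 and 2 on each side, given as values). The low side was not matched for these markers, as given above.

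**Figure D4:**
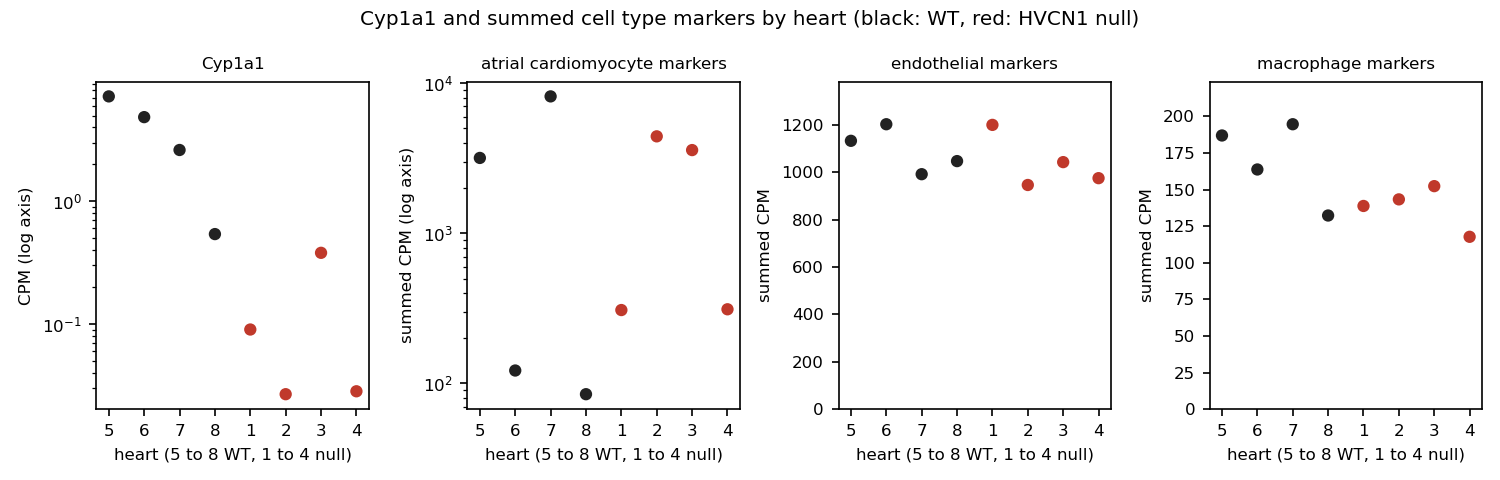
Cyp1a1 CPM (log axis) beside the summed CPM of atrial (log axis), endothelial and macrophage markers (axes from 0) in WT hearts 5 to 8 (black) and HVCN1 null hearts 1 to 4 (red). The atrial sum divides each genotype evenly, the endothelial sums overlap between genotypes, and Cyp1a1 is lower in all null hearts.

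No tested gene around Cyp1a1 was a DEG. Of 10 genes annotated within 100 kb, 9 were in the counts and 7 were tested: Scamp2, Ulk3, Lman1l, Csk, Edc3, Clk3 and Arid3b. None of the 7 was a DEG or had an unadjusted p under 0.05, against 1.14% and 11.0% of all tested genes. Their log2 fold changes ran from -0.06 (Lman1l) to 0.12 (Csk), and the lowest adjusted p was 0.798. Cyp1a2 and Cplx3 were too low to test, with 0 counts and 1 count over all hearts.

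Other genes that activated AHR is known to induce did not pass the test. Of 14 listed, 11 were tested and 0 were called, against 1.14% called over all genes. An unadjusted p under 0.05 was found for 1 of the 11, and for 11.0% of all tested genes. The number called stayed 0 in all 19 other settings, DESeq2 and voom included. Of the 11, 9 were below 0 on the log2 scale and 2 above it, with a median of -0.18 against -0.01 over all genes. Gsta2, a glutathione transferase, had the lowest value, -1.34 (SE 0.71, adjusted p = 0.554), at 0.139 ± 0.140 CPM in null and 0.353 ± 0.138 CPM in WT hearts (n = 4 each, ± SD). Reads of Gsta2 may be split with its close copy Gsta1, which was at -0.88 (SE 0.48). Nqo1, the quinone reductase often read beside Cyp1a1, was at 37.9 ± 2.15 CPM in null and 46.0 ± 9.72 CPM in WT hearts (log2 fold change -0.28, SE 0.15, adjusted p = 0.555), and WT heart 7 was below all null hearts. Nfe2l2, which encodes the stress regulator NRF2, had the highest value, 0.23 (SE 0.08, adjusted p = 0.291), at 60.8 ± 4.77 CPM in null and 51.7 ± 1.05 CPM in WT hearts, and its groups did not overlap. Cyp2s1 and Aldh3a1, both low, followed the atrial markers: Cyp2s1 was at 1.14 to 4.92 CPM in hearts high in them and at 0.424 to 0.989 CPM in the others.

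**Figure D5:**
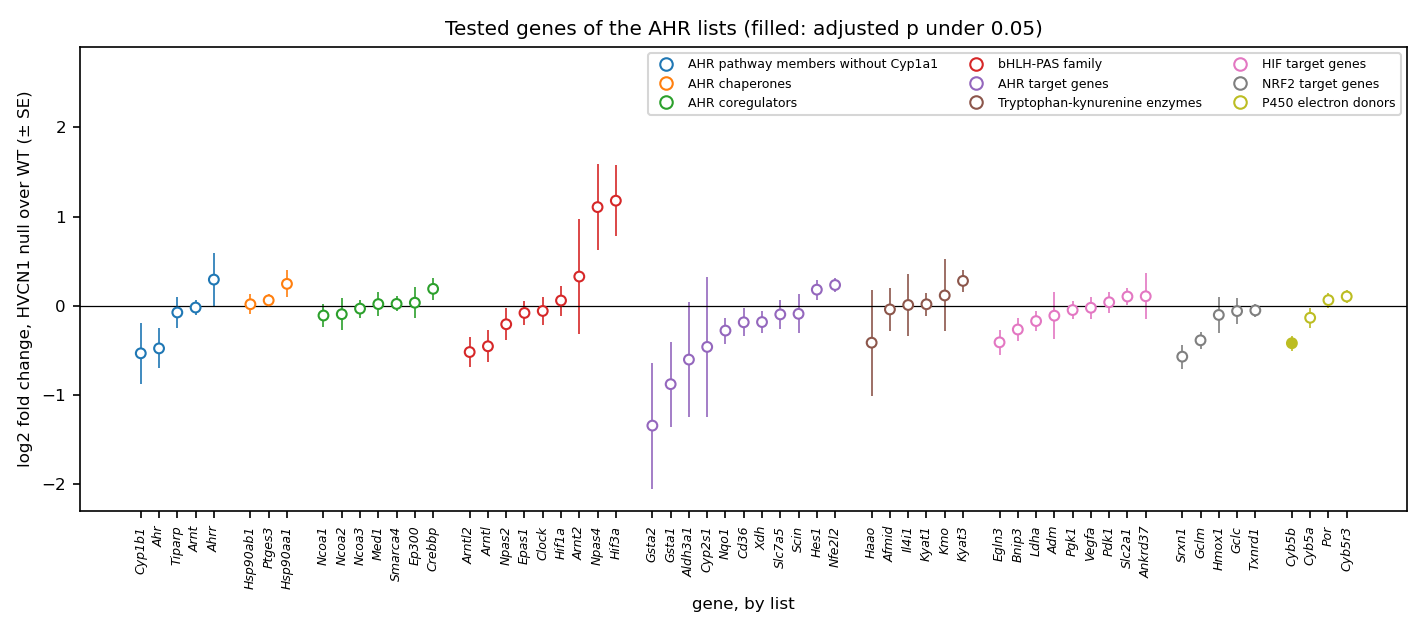
Log2 fold change, HVCN1 null over WT, ± SE, for tested genes of the AHR lists, coloured by list and ordered within it, with 1 chaperone not shown and Cyp1a1 left out because at -4.98 it lies far below the axis. Cyb5b is the single filled point (adjusted p under 0.05), 9 of 11 AHR target genes are below 0, and the longest bars are those of Cyp2s1 (SE 0.78) and Gsta2 (SE 0.71).

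No gene for the proteins that hold and assist the receptor was called. Of 4 chaperones of the AHR complex, 0 were called (median log2 fold change 0.04), and Hsp90aa1, an HSP90 subunit, had the highest value at 0.25 (SE 0.15). Of 7 coactivators and remodelling factors, 0 were called (median 0.02), from Ncoa1 at -0.11 (SE 0.13) to Crebbp, an acetyltransferase, at 0.19 (SE 0.12). Neither list had a gene with an unadjusted p under 0.05, nor a call in any of the 19 other settings. Over all tested genes 11.0% had such a p and 1.14% were called, so that 0 in lists this short is near those shares.

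Relatives of AHR and ARNT spread more widely. Of 13 other bHLH-PAS genes, 9 were tested and 0 were called, in these or in the 19 other settings, while 4 had an unadjusted p under 0.05, as did 11.0% of all tested genes (median log2 fold change -0.06). Arntl2, a paralog of the clock factor Arntl, was at 2.38 ± 0.384 CPM in null and 3.42 ± 0.369 CPM in WT hearts (log2 fold change -0.52, SE 0.17, adjusted p = 0.257), with no overlap of the groups. Hif3a, an inhibitory hypoxia-inducible factor, was at 1.61 ± 0.876 and 0.711 ± 0.231 CPM (1.18, SE 0.40, adjusted p = 0.268). Of 10 target genes of the hypoxia-inducible factors, which share ARNT with AHR, 9 were tested and 0 called (median -0.05). They ran from Egln3, an oxygen-sensing prolyl hydroxylase, at -0.41 (SE 0.14, adjusted p = 0.262) to Ankrd37 at 0.11 (SE 0.26). Beside the 0 calls in both lists, 1.14% of all tested genes were called.

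Enzymes that make or remove AHR ligands from tryptophan were mostly low. Of 11, 6 were tested and 0 called (median log2 fold change 0.01), against 1.14% called over all tested genes. The other 5, with the dioxygenases Ido1, Ido2 and Tdo2 among them, were too low to test. Haao was at -0.41 (SE 0.60) and the kynurenine aminotransferase Kyat3 at 0.28 (SE 0.12, adjusted p = 0.437). The latter was at 27.2 ± 3.64 CPM in null and 22.4 ± 2.95 CPM in WT hearts (n = 4 each, ± SD).

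Among 4 genes of the reductases and cytochromes b5 that pass electrons on to enzymes such as the P450s, 1 fell, Cyb5b, the cytochrome b5 of the outer mitochondrial membrane, where 1.14% of all tested genes were DEGs and 7.06% had genotypes that did not overlap. Cyb5b (ENSMUSG00000031924) was at 51.5, 49.0, 51.9 and 59.0 CPM in null hearts and at 69.6, 73.0, 67.7 and 72.6 CPM in WT hearts. All null values lay below all WT values, on both sides of the atrial difference. The log2 fold change was -0.42 (SE 0.08, adjusted p = 0.0489), just inside the threshold. The call was lost in 13 of 19 other settings. Leaving out any heart but null heart 4 ended it, with adjusted p from 0.0771 to 0.173, and so did RLE scaling (0.0557), no scaling (0.0630), no filter (0.0610) and the atrial covariate (0.0503). Por, the reductase that serves CYP1A1, was not called, and Cyb5r3 had the highest value at 0.10 (SE 0.08).

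No tested gene on a short list of NRF2 targets was called, against 1.14% of all tested genes, and targets outside this list were not read as a set. The gene of NRF2 is itself an AHR target. Of 6 listed, 5 were tested, all 5 had a log2 fold change below 0 (median -0.10, against -0.01 over all genes), and 2 had an unadjusted p under 0.05, as did 11.0% of all tested genes. Srxn1, the sulfiredoxin that repairs peroxiredoxins, was at 16.8 ± 2.06 CPM in null and 24.9 ± 4.18 CPM in WT hearts (-0.57, SE 0.13, adjusted p = 0.0896). Gclm, a subunit of the enzyme that starts glutathione synthesis, was at 17.9 ± 1.58 and 23.4 ± 1.98 CPM (-0.39, SE 0.09, adjusted p = 0.105). The groups did not overlap for either gene, as for 7.06% of all tested genes, and both were called by edgeR's exact and likelihood ratio tests and by DESeq2 but not by voom.

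The genes most like Cyp1a1 were sought over all tested genes by Pearson's r of log2 CPM over the 8 hearts, which share their libraries and the genotype difference. They were Gm5086 (r = 0.985), Slco2b1, an organic anion transporter (0.981), Osgin1, an oxidative stress response gene (0.968), Hilpda, a lipid droplet protein gene (0.967), and Tpm3, a tropomyosin gene (0.960). Osgin1 was at 2.71 ± 0.418 CPM in null and 5.09 ± 0.938 CPM in WT hearts (n = 4 each, ± SD). As these genes were chosen for a pattern that holds the genotype difference of Cyp1a1, no test of genotype is given for them. After each genotype's mean was subtracted, the nearest genes were Fam171a2 (0.977), Atp6v0e, Pycard, Uimc1 and F11r (0.956), none of which was in the first set. The members themselves were far from Cyp1a1: over 8 hearts r was 0.446 for Cyp1b1, 0.265 for Ahr, 0.174 for Tiparp, 0.0196 for Arnt and -0.474 for Ahrr. Within genotypes Cyp1b1 was at 0.0635 and Ahr at -0.621. Null heart 3 and WT heart 5 were the highest of their genotype for Cyp1a1, Fam171a2, Atp6v0e, Pycard, Uimc1 and F11r. Both hearts were also the lowest of their genotype for Ahr, Ryr2 (1235 and 1082 CPM) and Ep300 (40.1 and 41.7 CPM). They were the highest for the endothelial marker Egfl7 (109 and 105 CPM). The part of these libraries in the r values within genotypes was not tested.

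Some counts of the members could include reads of overlapping genes. Arnt overlaps the processed pseudogene Gm42672, Tiparp overlaps 4931440P22Rik on the opposite strand, and Ahr overlaps Gm48236 on the opposite strand. As the strand setting of the counting is not given in the sources used here, reads of these pairs cannot be told apart. Cyp1a1 is not among these genes.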

How the data were processed

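RNA of 8 mouse hearts (4 HVCN1 null, 4 WT) had been selected by poly-A capture, sequenced as paired reads of 50 nt, aligned with STAR and counted per gene with featureCounts by the authors, as the labels' processing notes and the study's methods say. Versions of these tools are not given in the sources used here. The deposited values are raw counts per gene and heart, whole numbers without normalization, and total counts of 25851255 to 38874640 per heart set the precision. The processing notes name mm10 and GRCm38, while the study's text names a human build. As the identifiers are mouse Ensembl identifiers, symbols, positions and merged exon lengths came from GENCODE M21 on GRCm38, where 38872 of 39056 genes (99.5%) matched.

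CPM values were computed here with edgeR 4.0.16 (R 4.3.3), with library sizes summed over the tested genes and scaled by TMM. Genes were kept by filterByExpr (minimum count 10), the quasi-likelihood test of edgeR gave DEGs (Benjamini-Hochberg adjustment, threshold 0.05), and log2 CPM used a prior count of 2. Single members were also tested by exact permutation over 70 assignments of hearts. The members and all gene lists were chosen with earlier results of these data known. Named genes are the members, list genes that were DEGs, the extremes of each list (1 of which is not reported here, though counts and medians include it), genes within 100 kb of Cyp1a1 and the 5 genes most like it by each of 2 measures. Others (Gsta1, Nqo1, Cyp2s1, Aldh3a1, Gclm, Por and markers) were named after their values were seen. Alternatives were RLE or no scaling, 2 filters, the exact and likelihood ratio tests of edgeR, DESeq2 1.42.0, voom (limma 3.58.1) and each heart left out in turn. An atrial covariate and fits of only the hearts low or high in atrial markers were added after seeing the data. The main quasi-likelihood fit was also run on simulated counts, and the alternatives were not. Promoter windows came from the RefSeq table, where 6 of 7 members matched. Tables and plots were made with Python 3.11.15, pandas 2.3.3 and matplotlib 3.10.9. The hearts could not be paired, as the labels give each its own number, and they name no batch.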

Additional observations from a re-analysis of the deposited data

Results flagged for a closer look

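No member had a heart far from the other 3 of its genotype by Dixon's ratio, but 10 of 122 groups of 4 hearts did over 61 tested genes of the AHR lists, where chance gives about 1 in 20. WT heart 7 was apart in 5 genes: Arnt2 was at 1.27 CPM against 0.203 to 0.304 in the other WT hearts, Nqo1 at 31.4 against 50.2 to 51.8, Cyp2s1 at 4.92 against 0.439 to 1.14, Bnip3 at 86.5 against 124 to 127 and Adm at 13.1 against 6.40 to 7.46 CPM. WT heart 7 also had the highest atrial marker sum, and its part in these values was not tested. WT heart 5 was apart in Crebbp, at 36.7 CPM against 46.4 to 47.2, and in Hes1, at 21.8 CPM against 18.2 to 18.6. WT heart 6 was apart in Hsp90aa1, at 99.1 CPM against 78.0 to 79.6. Of the null hearts, heart 1 was apart in Xdh, at 93.2 CPM against 72.5 to 75.7, and heart 4 in Haao, at 0.706 CPM against 0.0760 to 0.161.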

How the results depend on the processing

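The number of DEGs over all genes was 367 with edgeR's exact test, 376 with its likelihood ratio test and 466 with DESeq2, 71 and 24 with only the hearts low or high in atrial markers, and 71 to 152 as each heart was left out. Any member called was Cyp1a1, chosen on this contrast, so these counts describe its call and lend it no support. The number of members called was 1 in 10 of 19 other settings. It was 0 with a CPM above 1 in 4 hearts, which does not keep Cyp1a1, 0 with voom, 0 with only the hearts low and 0 with only the hearts high in atrial markers, and 0 to 1 as each heart was left out, with 0 without null heart 1, 2 or 4 or WT heart 5 or 6. The number of AHR target genes called stayed at 0 in all 19. Ahr and Cyp1b1 kept their sign in all 19 settings, at log2 fold changes of -0.62 to -0.28 and -0.94 to -0.34. The sign of Arnt turned to 0.017 with library sizes not scaled (difference in mean CPM 0.549) and to 0.016 with the hearts low in atrial markers alone, and that of Ahrr to -0.15 with the latter. As each heart was left out, the log2 fold change ran from -0.055 to 0.011 for Arnt, -0.070 to 0.46 for Ahrr and -0.22 to 0.053 for Tiparp. The difference in mean CPM, null minus WT, ran from -1.77 to 0.365 for Arnt, -0.162 to 1.14 for Ahrr and -1.70 to 0.394 for Tiparp. With 4 hearts a group, the exact permutation test cannot give a p under 0.0286. The 15 counts of Cyp1a1 in null hearts limit its fold change, and Cyp1a2, at 0 counts, could be read only to the upper limit of its interval. The cause of these shifts was not tested.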
